A study of Mus musculus with 15 samples.

Results

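The insulin-like growth factor 1 (IGF1) axis of brain microvessels was described by 8 genes: the ligand Igf1, its receptor Igf1r and the binding proteins Igfbp2, Igfbp3, Igfbp4, Igfbp5, Igfbp6 and Igfbp7. The 8 genes were selected by symbol from the 27174 genes of the deposited table, and each symbol matched 1 row. The selection used no threshold on a value, but it was made with earlier results of these data known, so the values below describe these genes and are not independent evidence for a choice of them. RNA was sequenced from microvessels of adult wild type mice (strain given as BL6/57), for the 4 groups of tumour bearing mice 21 days after transplantation of glioblastoma cells into the brain. Each group had 3 libraries and each library pooled 3 mice. In triple therapy, mice received aflibercept (a VEGF trap), AMG386 (a peptibody against angiopoietin 1 and angiopoietin 2) and anti-PD1, and vessels came from the tumour bearing region. Dual therapy was aflibercept with AMG386, again with vessels of the tumour bearing region. Untreated tumour denotes the tumour bearing region of mice given control IgG, and contralateral tissue the opposite region, free of tumour, of mice given control IgG. Sham denotes healthy mice that had a sham operation. The tumour cell line, the doses and the method of vessel isolation were not given in the sources used here, nor whether untreated tumour and contralateral libraries of the same number came from the same mice.

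IGF1 and IGF2 are secreted growth factors that activate the receptor tyrosine kinase IGF1R, which signals through insulin receptor substrates to PI3K, AKT and mTOR and through the MAP kinase pathway. Most IGF in extracellular fluid is held by IGF binding proteins, which prolong its life, limit its access to the receptor and release it when proteases such as PAPP-A2 or HTRA1 cut them. Several binding proteins also act on cells without IGF, and IGFBP7, whose affinity for IGF is low, is known as a protein of the vessel wall and of tumour endothelium.

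The deposited values are whole-number normalised scores per gene and not reads. Library totals ran between 11134670 and 15799111, and the spacing of low scores put 1 read at 0.656 to 1.86 units, or an estimated 6365348 to 18318084 assigned reads a library. Correlations between libraries of a group were 0.941 to 0.977. Mitochondrial ribosomal RNA took 9.55% to 12.2% of the score in triple therapy, 15.2% to 17.4% in dual therapy, 21.5% to 33.2% in untreated tumour, 14.5% to 15.8% in contralateral tissue and 11.9% to 12.4% in sham. The part of this gap in the results was not tested. Untreated tumour replicate 2 had the highest share and the highest total, and dual therapy replicate 2 lay apart on the second principal component (8.86% of the variance). On that component untreated tumour replicate 1 also lay apart from its own group, at -51.8 against -22.5 for replicate 2 and -23.0 for replicate 3. Each of 10 endothelial marker genes was detected, with summed scores of 69644 to 87310 in triple therapy, 76254 to 89529 in dual therapy, 51004 to 71364 in untreated tumour, 84464 to 94451 in contralateral tissue and 83581 to 87073 in sham. These sums do not stand for each gene, and the genes did not all move together, as given with the other markers below. Summed scores of 10 pericyte markers were 54478 to 71837 in triple therapy, 48936 to 61529 in dual therapy, 25169 to 29682 in untreated tumour, 55663 to 71704 in contralateral tissue and 64413 to 65463 in sham. Microvessels hold several cell types, and in these bulk libraries fewer cells of a type and less RNA per cell cannot be told apart.

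In a limma fit of log2(score + 1) over all 15 libraries, p-values were adjusted by the Benjamini-Hochberg method over 19668 genes, and genes with an adjusted value under 0.05 are counted as called. All 8 genes passed the filter on low scores. An F-test for any difference among the 5 groups called 7 of the 8, all but Igfbp6 (adjusted p = 0.0965), against 43.5% of all genes tested. A pair of patterns stood side by side: Igfbp3 and Igfbp7 were highest in untreated tumour, whereas Igfbp2, Igfbp5, Igf1 and Igf1r were lowest there.

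The 250 bases upstream of the start site are shown for both genes of the first pattern and for 2 of the second, because these genes moved in opposite directions between the same groups. Sequences are from RefSeq on GRCm38.p6, written 5′ to 3′ on the strand of the gene, with motif matches in capitals.
Igfbp3: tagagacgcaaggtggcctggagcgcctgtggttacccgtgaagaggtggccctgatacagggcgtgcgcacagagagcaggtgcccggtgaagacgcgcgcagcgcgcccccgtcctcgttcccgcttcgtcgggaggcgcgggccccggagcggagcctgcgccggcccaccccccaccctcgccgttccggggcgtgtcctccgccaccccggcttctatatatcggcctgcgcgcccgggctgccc
Igfbp7: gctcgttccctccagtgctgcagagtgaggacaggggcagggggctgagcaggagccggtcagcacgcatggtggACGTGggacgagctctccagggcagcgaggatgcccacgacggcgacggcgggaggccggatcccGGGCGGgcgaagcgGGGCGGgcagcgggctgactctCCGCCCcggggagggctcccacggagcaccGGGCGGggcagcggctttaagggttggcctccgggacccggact
Igfbp2: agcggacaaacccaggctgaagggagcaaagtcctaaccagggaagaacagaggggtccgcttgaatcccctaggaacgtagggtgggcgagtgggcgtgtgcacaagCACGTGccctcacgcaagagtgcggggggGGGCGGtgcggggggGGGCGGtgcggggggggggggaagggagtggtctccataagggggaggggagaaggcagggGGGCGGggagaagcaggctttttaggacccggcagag
Igf1r: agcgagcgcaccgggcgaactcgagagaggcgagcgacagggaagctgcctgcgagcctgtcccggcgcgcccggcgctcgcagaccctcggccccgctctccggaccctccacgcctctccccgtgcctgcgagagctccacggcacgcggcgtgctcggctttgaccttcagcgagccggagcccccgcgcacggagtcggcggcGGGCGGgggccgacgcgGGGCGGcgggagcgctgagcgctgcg
The Igfbp3 window lies at chr11:7213924-7214173 (minus strand) and the Igfbp7 window at chr5:77408046-77408295 (minus strand). The Igfbp2 window lies at chr1:72824230-72824479 and the Igf1r window at chr7:67952007-67952256 (both plus strand). Both strands were searched for the core promoter motif TATAAA and for ACGTG, 1 spelling of the core of the hypoxia response element. They were also searched for GGGCGG, known as the GC box, and for the FOXO element TGTTTAC. Only these exact letters were searched, so other spellings of each motif were not counted. The Igfbp3 window held none of these exact spellings, and the Igfbp7 window held 4 GC boxes and 1 ACGTG. The Igfbp2 window held 3 GC boxes and 2 ACGTG matches, which are the 2 strands of 1 CACGTG, and the Igf1r window held 2 GC boxes. Of 32851 mouse promoter windows of the same length, 32.7% held a GC box, 16.6% ACGTG, 12.4% TATAAA and 3.17% TGTTTAC. GC content was 73.2% for Igfbp3, 74.0% for Igfbp7, 67.2% for Igfbp2 and 77.6% for Igf1r, against a median of 52.4% over all windows. Among the windows shown, neither pattern had a motif match that the other lacked. Igfbp2 had a second window, at chr1:72825137-72825386, which is not shown and held no match of these motifs. The Igf1r window ends upstream of the GENCODE gene start at 67952827, and does not adjoin it.

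Igfbp3 (ENSMUSG00000020427, chr11:7206086-7213923, minus strand, GRCm38) encodes the main carrier of IGF in blood and differed most among the 8 genes. Its scores were 1409, 1273 and 1357 in triple therapy, 1071, 837 and 1119 in dual therapy, 11223, 6285 and 10560 in untreated tumour, 5320, 2715 and 4626 in contralateral tissue, and 1903, 1933 and 1395 in sham. The groups fell in the order untreated tumour, contralateral tissue, sham, triple therapy, dual therapy, and only triple therapy and sham overlapped. Igfbp3 was higher in untreated tumour than in contralateral tissue by 1.16 ± 0.22 on the log2 scale (SE, 2.23-fold, adjusted p = 0.000404) and higher than in sham by 2.39 ± 0.22 (5.25-fold, adjusted p = 1.08e-07). It fell 6.73-fold in triple therapy (log2 fold change -2.75 ± 0.22, adjusted p = 5.62e-07) and 9.05-fold in dual therapy (-3.18 ± 0.22, adjusted p = 4.87e-07), each against untreated tumour. Both treated groups also lay below contralateral tissue, by -1.59 (adjusted p = 0.000161) in triple therapy and -2.02 (adjusted p = 9.15e-06) in dual therapy. Every dual therapy library was below every sham library, a contrast that was not fitted here.

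Contralateral tissue carried no tumour, and Igfbp3 was the 1 member called in it against sham, at 1.23 ± 0.22 (2.35-fold, adjusted p = 0.0193). Of all genes, 0.432% were called in this comparison, of which 58.8% rose (42.9% after scaling libraries to endothelial markers, which shifted the median gene by -0.13, and 80.7% after quantile normalisation). The 3 contralateral libraries were all above the 3 sham libraries. The call held in 8 of 15 alternatives and was lost without contralateral replicate 1 (adjusted p = 0.108) or 3 (0.0686), without sham replicate 2 (0.0528) or 3 (0.131), and with endothelial scaling (0.101). The log2 fold change stayed between 1.04 and 1.52 in all 15.

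**Figure D1:**
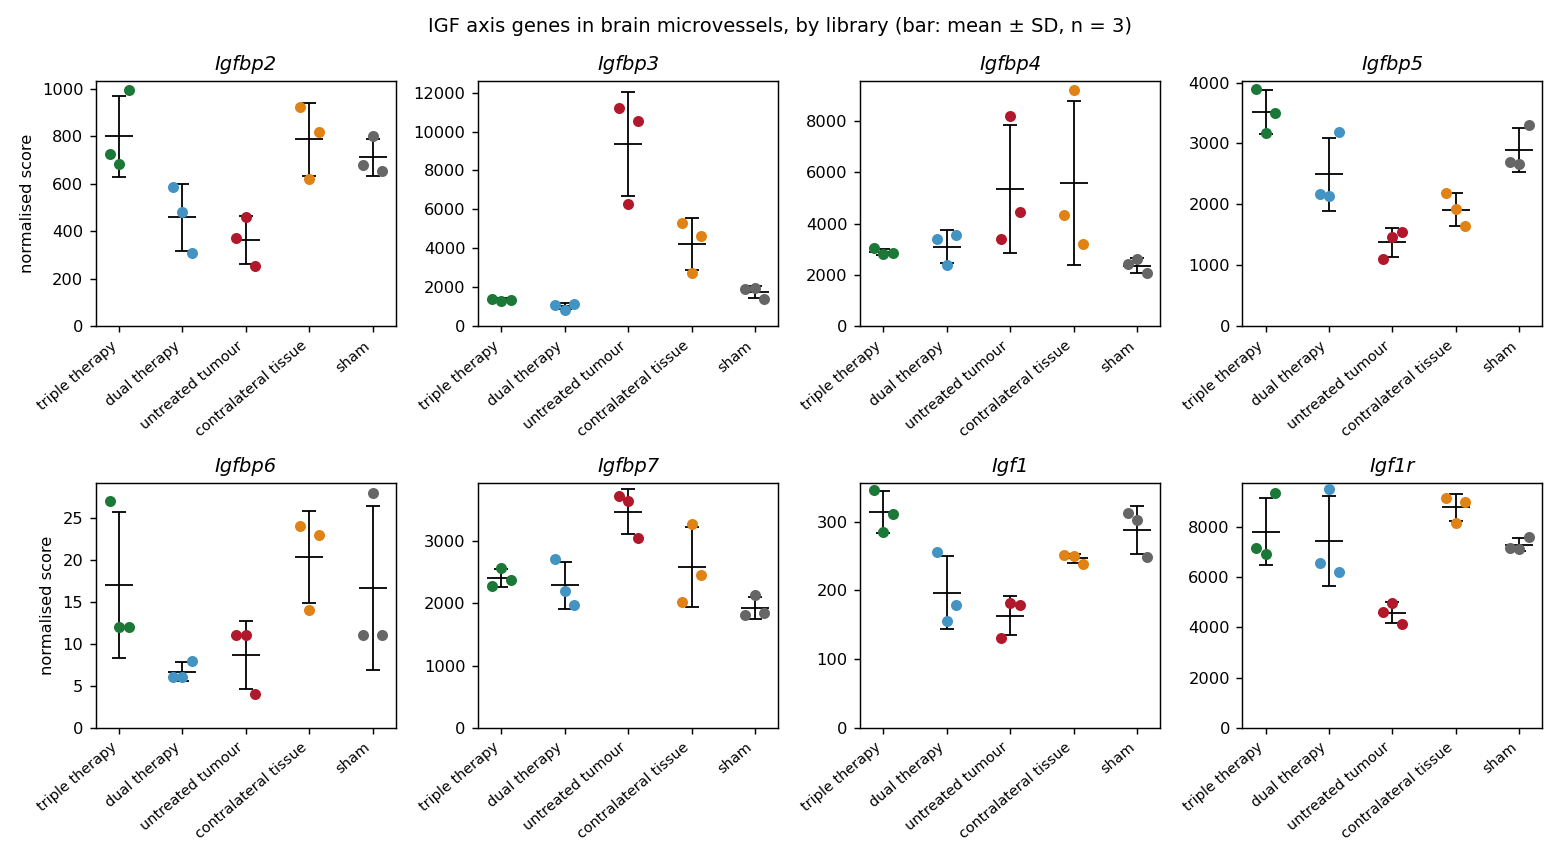
Normalised score (linear axis from 0) of each gene in each library; points are the 3 libraries of a group, and the bar is their mean ± SD. Igfbp3 and Igfbp7 peak in untreated tumour, and Igfbp2, Igfbp5, Igf1 and Igf1r are lowest there.

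Igfbp7 (ENSMUSG00000036256, chr5:77349240-77408041, minus strand) moved in the same direction with smaller steps. It scored 2280, 2575 and 2372 in triple therapy, 2711, 2201 and 1968 in dual therapy, 3723, 3646 and 3061 in untreated tumour, 2018, 3276 and 2463 in contralateral tissue, and 1815, 2131 and 1842 in sham. Untreated tumour lay above both treated groups and sham without overlap, but contralateral replicate 2 fell within its range. Igfbp7 fell by 0.53 ± 0.15 in triple therapy (1.44-fold lower, adjusted p = 0.0119) and by 0.61 ± 0.15 in dual therapy (1.52-fold lower, adjusted p = 0.00751) against untreated tumour. Untreated tumour was higher than contralateral tissue by 0.45 ± 0.15 (adjusted p = 0.0214), a call held in 8 of 15 alternatives and lost without untreated replicate 1 (adjusted p = 0.0703) or 2 (0.0552) or contralateral replicate 1 (0.148) or 3 (0.0621). Against sham it was higher by 0.85 ± 0.15 (1.8-fold, adjusted p = 0.000143). An exon of Igfbp7 overlaps Polr2b on the opposite strand, and whether counting used the strand was not given, so some of this score could belong to Polr2b.

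Igfbp5 (ENSMUSG00000026185, chr1:72857932-72874884, minus strand), a binding protein that also adheres to extracellular matrix, ran the other way. Its scores were 3887, 3165 and 3508 in triple therapy, 2170, 2132 and 3188 in dual therapy, 1105, 1465 and 1548 in untreated tumour, 2188, 1919 and 1637 in contralateral tissue, and 2702, 2661 and 3311 in sham. Each untreated tumour library was below every library of the other 4 groups. Igfbp5 rose 2.58-fold in triple therapy (1.37 ± 0.16, adjusted p = 8.02e-06) and 1.8-fold in dual therapy (0.85 ± 0.16, adjusted p = 0.00124) against untreated tumour. Triple therapy exceeded contralateral tissue by 0.88 ± 0.16 (adjusted p = 0.00183), the 1 rise among members in that comparison. Untreated tumour was lower than sham by -1.08 ± 0.16 (2.12-fold, adjusted p = 2.29e-05) and lower than contralateral tissue by -0.48 ± 0.16 (adjusted p = 0.0209). That last call held in 10 of 15 alternatives and was lost without untreated replicate 1 (adjusted p = 0.118) or contralateral replicate 1 (0.103), with no trend (0.0636), with quantile normalisation (0.0849) and with endothelial scaling (0.234).

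Igfbp2 (ENSMUSG00000039323, chr1:72824503-72852474, plus strand) lies 5457 bases from Igfbp5, with the 3′ ends of the pair facing each other. It scored 724, 682 and 997 in triple therapy, 586, 482 and 308 in dual therapy, 373, 459 and 255 in untreated tumour, 924, 619 and 821 in contralateral tissue, and 678, 802 and 655 in sham. Triple therapy lay above dual therapy and untreated tumour without overlap, while dual therapy overlapped untreated tumour. Igfbp2 rose 2.24-fold in triple therapy against untreated tumour (1.16 ± 0.23, adjusted p = 0.00086), and in dual therapy the difference of 0.33 ± 0.23 was not called (adjusted p = 0.327). Untreated tumour was lower than contralateral tissue by -1.14 ± 0.23 (adjusted p = 0.000593) and lower than sham by -1.01 ± 0.23 (adjusted p = 0.00144). Dual therapy was lower than contralateral tissue by -0.81 ± 0.23 (adjusted p = 0.0251), a call lost without dual therapy replicate 3 (adjusted p = 0.135) or contralateral replicate 1 (0.11) or 3 (0.0851). In triple therapy the difference from contralateral tissue was 0.02, with a 95% interval of -0.46 to 0.50.

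Igf1 (ENSMUSG00000020053, chr10:87858265-87937042, plus strand), the ligand, was low, at 346, 285 and 311 in triple therapy, 256, 155 and 179 in dual therapy, 130, 181 and 178 in untreated tumour, 251, 250 and 239 in contralateral tissue, and 312, 303 and 248 in sham. Dual therapy and untreated tumour overlapped at the low end, and triple therapy lay above both. It rose 1.94-fold in triple therapy against untreated tumour (0.95 ± 0.18, adjusted p = 0.000613), whereas the difference of 0.25 ± 0.18 in dual therapy was not called (adjusted p = 0.343). Untreated tumour was lower than sham by -0.82 ± 0.18 (adjusted p = 0.00103) and lower than contralateral tissue by -0.61 ± 0.18 (adjusted p = 0.0106). The second of these was lost without untreated replicate 1 (adjusted p = 0.0631) and with endothelial scaling (0.136). An exon of Igf1 overlaps the antisense gene Igf1os, whose reads cannot be told apart from those of Igf1 if the strand was not used.

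Igf1r (ENSMUSG00000005533, chr7:67952827-68233668, plus strand), the receptor, had scores of 7170, 6930 and 9343 in triple therapy, 6577, 9492 and 6222 in dual therapy, 4624, 4985 and 4135 in untreated tumour, 9163, 8167 and 8999 in contralateral tissue, and 7158, 7133 and 7589 in sham. Untreated tumour lay below the other 4 groups, which overlapped one another except for contralateral tissue and sham. Igf1r was lower in untreated tumour than in contralateral tissue by -0.94 ± 0.14 (1.92-fold, adjusted p = 4.33e-05) and lower than in sham by -0.67 ± 0.14 (adjusted p = 0.000847). It rose 1.7-fold in triple therapy (0.76 ± 0.14, adjusted p = 0.00062) and 1.6-fold in dual therapy (0.68 ± 0.14, adjusted p = 0.00297) against untreated tumour. Each of these 4 calls held in all 15 alternatives.

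Igfbp4 (ENSMUSG00000017493, chr11:99041244-99054392, plus strand), which mainly restrains IGF action, was set apart by single libraries. Its scores were 3046, 2812 and 2846 in triple therapy, 3387, 2384 and 3541 in dual therapy, 3416, 8193 and 4458 in untreated tumour, 4324, 9213 and 3186 in contralateral tissue, and 2433, 2600 and 2053 in sham. Replicate 2 was far above the other libraries in both untreated tumour and contralateral tissue. Igfbp4 was called in untreated tumour against sham, at 1.09 ± 0.30 (2.12-fold, adjusted p = 0.00645). Against untreated tumour it was lower in triple therapy by -0.79 ± 0.30 (adjusted p = 0.0547, called in 7 of 15 alternatives, among them without untreated replicate 1, at 0.0187). In dual therapy the difference of -0.71 ± 0.30 was not called (adjusted p = 0.102) but was without untreated replicate 1 (0.0419). In contralateral tissue against sham the difference of 1.1 ± 0.30 was not called either (adjusted p = 0.117).

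Igfbp6 (ENSMUSG00000023046, chr15:102144362-102149511, plus strand), a binding protein that prefers IGF2, was near the detection limit. It scored 27, 12 and 12 in triple therapy, 6, 6 and 8 in dual therapy, 11, 11 and 4 in untreated tumour, 24, 14 and 23 in contralateral tissue, and 11, 28 and 11 in sham. It was called in none of the 8 comparisons. In triple therapy against untreated tumour the difference of 0.91 had a 95% interval of -0.18 to 1.99 and was called in 1 of 15 alternatives. Untreated tumour was lower than contralateral tissue by -1.21 ± 0.52 without overlap of libraries (adjusted p = 0.0674), and this was called in 3 of 15 alternatives, at adjusted p = 0.0217 with quantile normalisation, 0.0463 with no trend and 0.00868 with library weights.

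By comparison, members were called as follows, beside the share of all genes called. In untreated tumour against contralateral tissue 2 rose and 4 fell (42.5% of all genes, of which 49.6% rose, or 66.6% with endothelial scaling, which shifted the median gene by 0.21). The count of 6 fell to 3 without untreated replicate 1. In untreated tumour against sham 3 rose and 4 fell (46.6% of all genes). In triple therapy against untreated tumour 4 rose and 2 fell (32.2%), and in dual therapy 2 rose and 2 fell (22.3%, of which 54.3% rose, or 33.0% with endothelial scaling, which shifted the median gene by -0.15). In triple therapy against contralateral tissue 1 rose and 1 fell (4.97%, of which 83.4% rose, or 95% with endothelial scaling, which shifted the median gene by 0.15). In dual therapy against contralateral tissue 2 fell, Igfbp2 and Igfbp3 (12.8%, of which 54.0% rose, or 68.4% with endothelial scaling). These comparisons share libraries, untreated tumour among them, so their directions are not independent of each other. The members' median log2 fold change was 0.83 in triple therapy and 0.01 in dual therapy against untreated tumour. Over all genes it was -0.02 in triple therapy and -0.01 in dual therapy. The members' median lies midway between Igf1r (0.76) and Igfbp6 (0.91) in triple therapy, and between Igfbp6 (-0.24) and Igf1 (0.25) in dual therapy. Igfbp6 was near the detection limit, and members moved in both directions. None was called between the therapies, so these medians do not show the axis moving as a whole.

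**Figure D2:**
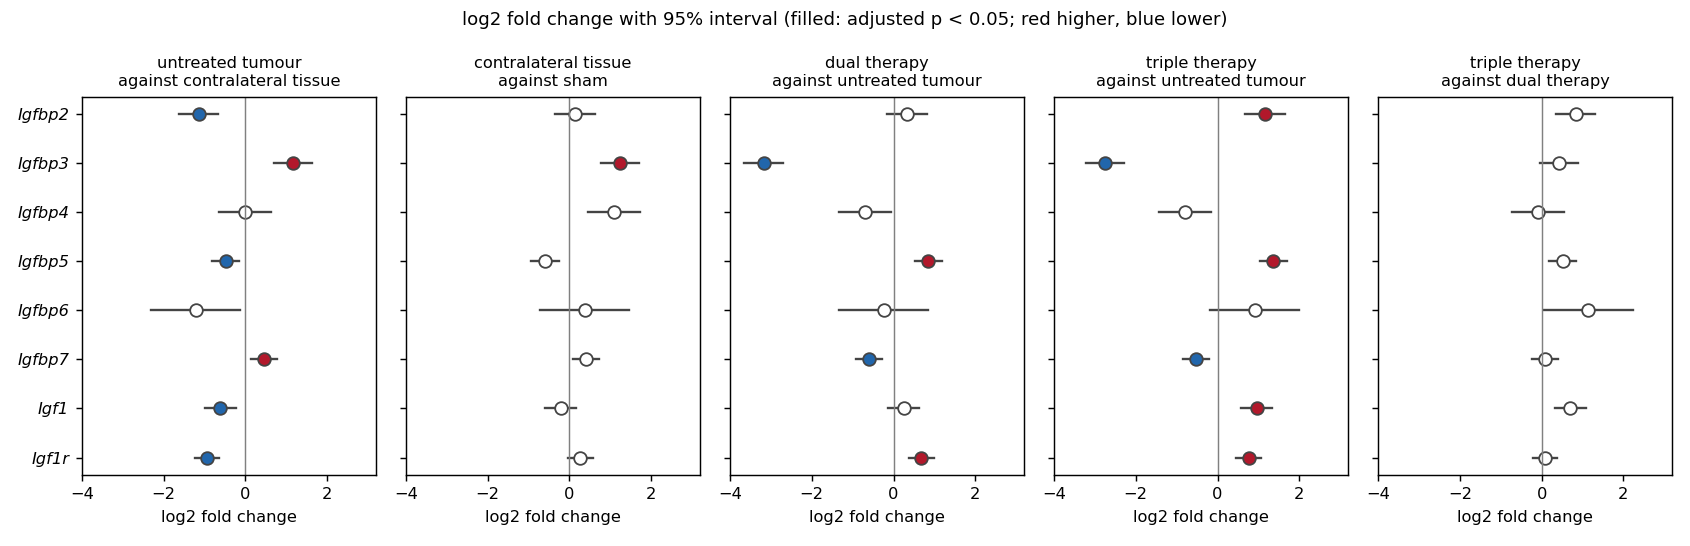
log2 fold change of log2(score + 1) for each gene (point) with its 95% interval (line) in 5 comparisons, first-named group over second; filled points had an adjusted p below 0.05, red for higher and blue for lower. Both therapy panels show Igfbp3 far to the left, at -2.75 in triple therapy and -3.18 in dual therapy.

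Adding anti-PD1 to the dual therapy was addressed by triple against dual therapy, where 0 of 8 members were called by limma, beside 0.869% of all genes, although 4 members had an unadjusted p below 0.05, as did 14.5% of all genes. The 171 genes called in all fell to 0 without triple therapy replicate 1 and to 0 without dual therapy replicate 2. Triple therapy was higher for Igf1 by 0.70 ± 0.18 (adjusted p = 0.0728, 95% interval 0.32 to 1.08) and for Igfbp2 by 0.83 ± 0.23 (adjusted p = 0.0938, 0.35 to 1.31), without overlap of libraries in either gene. Without dual therapy replicate 1 both were called, at adjusted p = 0.0249 and 0.0423. Igfbp5 differed by 0.52 ± 0.16 (adjusted p = 0.139), and was called without dual therapy replicate 3 (0.034). For Igfbp3 the difference was 0.43 ± 0.22 (adjusted p = 0.398, -0.04 to 0.89), and for Igf1r it was 0.09 ± 0.14 (adjusted p = 0.833, -0.22 to 0.39). Igf1 and Igfbp2, called against untreated tumour in triple and not in dual therapy, were therefore not shown to differ between the therapies.

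Levels can be set against each other only per length. Per kb of exon, the 6 binding protein genes summed to 4115 ± 52.1 in triple therapy, 3592 ± 403 in dual therapy, 7510 ± 283 in untreated tumour, 5513 ± 720 in contralateral tissue and 3569 ± 270 in sham (mean score per kb ± SD, n = 3 each). Untreated tumour stood above every other group without overlap. By mean, Igfbp7 had the largest share of this sum in every group except untreated tumour, at 48.4% ± 3.29 in triple therapy, 52.7% ± 5.31 in dual therapy, 38.3% ± 3.25 in untreated tumour, 38.5% ± 5.84 in contralateral tissue and 44.7% ± 1.42 in sham. Reads of the overlapping Polr2b, if counted for Igfbp7, would raise both this share and the sum. The share of Igfbp3 was 10.5% ± 0.52 in triple therapy, 8.98% ± 1.09 in dual therapy, 39.7% ± 10.8 in untreated tumour, 25.3% ± 10.1 in contralateral tissue and 15.6% ± 2.09 in sham. Igfbp5 held 14.2% ± 1.47 in triple therapy, 11.7% ± 3.19 in dual therapy, 3.06% ± 0.62 in untreated tumour, 5.83% ± 1.0 in contralateral tissue and 13.6% ± 2.58 in sham. In every group Igfbp3 and Igfbp7 together made up most of the sum by mean, and the mean share of Igfbp3 was largest in untreated tumour. Per kb, Igf1r averaged 465 ± 79.2 in triple therapy, 443 ± 107 in dual therapy, 273 ± 25.4 in untreated tumour, 523 ± 31.8 in contralateral tissue and 434 ± 15.3 in sham, and Igf1 was at most 34.9 in any library.

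**Figure D3:**
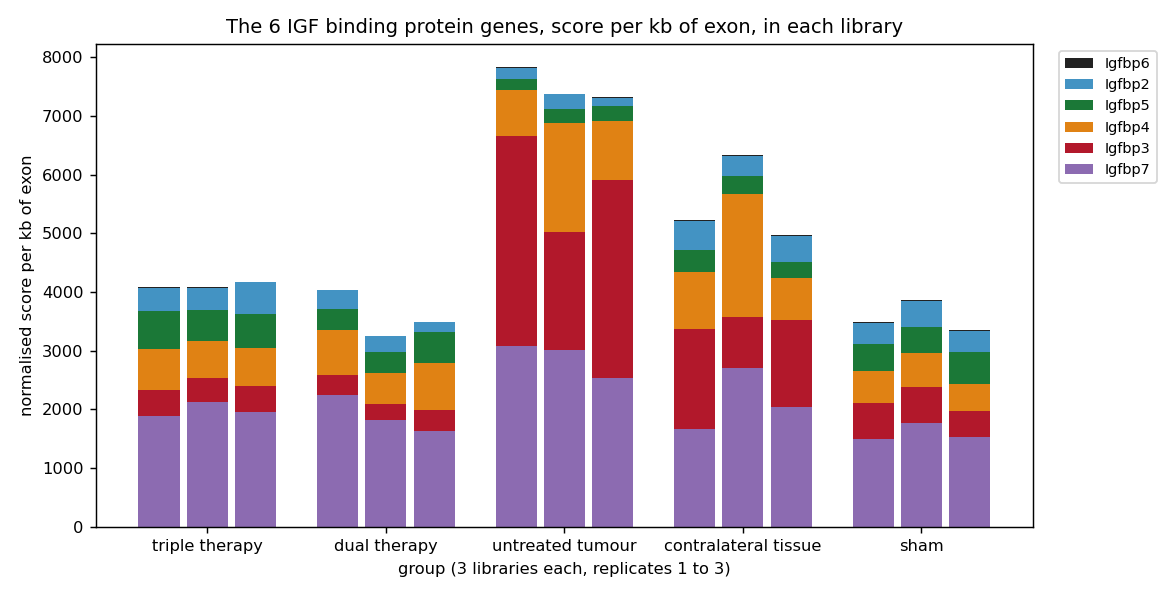
Stacked bars of score per kb of exon for the 6 binding protein genes, 1 bar a library, linear axis from 0. Untreated tumour bars reach 7315 to 7834, with the Igfbp3 segment (red) wide there and thin in both therapy groups.

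Marker genes of several other cell types, but not of all, moved in the same comparisons. Of all genes, 32.2% were called in triple therapy and 22.3% in dual therapy against untreated tumour, and 42.5% in untreated tumour against contralateral tissue. Against untreated tumour, 2 of 8 oligodendrocyte markers rose in triple therapy and 1 in dual therapy, and 0 of 7 choroid plexus and ependyma markers were called in either. Of 8 microglia markers, 2 rose and 1 fell in triple therapy, and 2 fell in dual therapy. Of 6 oligodendrocyte precursor markers, 2 rose and 3 fell in triple therapy, and 1 rose and 3 fell in dual therapy. Of 10 endothelial markers, 2 rose and 1 fell in triple therapy and 2 rose in dual therapy against untreated tumour. In untreated tumour against contralateral tissue 1 of them rose and 2 fell. Their median log2 fold change was -0.02 in triple therapy, 0.11 in dual therapy and -0.25 in untreated tumour against contralateral tissue. Of 10 pericyte markers, 9 rose in triple therapy and 7 in dual therapy against untreated tumour, and 9 fell in untreated tumour against contralateral tissue. Of 9 fibroblast markers, 6 rose in triple therapy, and in dual therapy 5 rose and 1 fell, and their summed score was 9755 to 11824 in triple therapy, 6494 to 11345 in dual therapy, 7275 to 8711 in untreated tumour, 7995 to 11434 in contralateral tissue and 7886 to 9224 in sham. In untreated tumour against contralateral tissue 2 fibroblast markers rose and 6 fell. Of 10 astrocyte markers, 7 rose in triple therapy and 6 in dual therapy, and of 10 neuron markers, 9 rose in triple therapy and 8 in dual therapy. All 6 proliferation markers fell in each therapy, with summed scores of 1231 to 1532 in triple therapy, 837 to 1408 in dual therapy and 4459 to 10746 in untreated tumour, against 76 to 205 in contralateral tissue and 131 to 180 in sham. Of 6 smooth muscle markers, 4 rose in each therapy and 5 fell in untreated tumour against contralateral tissue, with summed scores of 39401 to 44004 in triple therapy, 29364 to 39687 in dual therapy, 9605 to 24231 in untreated tumour, 33439 to 53076 in contralateral tissue and 37896 to 41469 in sham. Macrophage markers summed to 10296 to 11196 in triple therapy, 6174 to 10133 in dual therapy, 7449 to 10285 in untreated tumour, 5097 to 5816 in contralateral tissue and 4665 to 5084 in sham. Calls among these 10 markers were mixed, with 6 risen and 3 fallen in untreated tumour against contralateral tissue. Against untreated tumour, 3 rose in triple therapy, and 2 rose and 1 fell in dual therapy. Markers of choroid plexus and ependyma varied within groups, at 26562 to 79593 in triple therapy, 16457 to 32025 in dual therapy, 15367 to 51624 in untreated tumour, 40706 to 84047 in contralateral tissue and 22803 to 24882 in sham. No marker of these lists was at 0 in every library. Pearson correlations were taken over the 15 libraries of all 5 groups, which differ in depth, so they include the differences between groups. Igf1r had an r of 0.90 and Igfbp2 of 0.81 with the pericyte markers. Igf1 had 0.86 with fibroblast and 0.78 with smooth muscle markers, and Igfbp5 had 0.80 with astrocyte markers. Igfbp2 also had 0.79 with fibroblast, 0.64 with neuron, 0.61 with smooth muscle, 0.55 with choroid plexus and -0.63 with proliferation markers. Igf1r had -0.75 with proliferation markers. Not every marker list is given for each member. Igfbp3 had -0.62 with astrocyte, -0.57 with pericyte, -0.30 with endothelial and 0.33 with proliferation markers. Igfbp7 had -0.78 with astrocyte, -0.71 with oligodendrocyte and 0.60 with proliferation markers. The part of these cell types in the IGF results was not tested.

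Genes with the highest positive correlation of log2 scores with each member over the 15 libraries are given as a description. They were ranked among 11506 genes with a mean score of at least 50 and an established symbol. For Igfbp6 the ranking rests on low scores, 4 to 28 over all libraries. For Igfbp3 they were Trp53i11 (r = 0.96), C1qtnf1 (0.91) and the endothelial lectin Clec14a (0.86). For Igf1r they were genes of barrier transporters, Abcb1a (0.95), Abcg2 (0.95) and Slc19a3 (0.94). Igfbp7 ran with S100a6 (0.94), the Tie2 ligand Angpt2 (0.93) and Wdr46 (0.92), and Igfbp5 with Lfng (0.95), a modifier of Notch, Il33 (0.92) and Efnb1 (0.92). Igfbp4 ran with Ier3 (0.90), Hilpda (0.90), a lipid droplet gene known as a hypoxia target, and Sema4c (0.89). All of these genes and Igfbp4 had their highest scores in contralateral replicate 2 and untreated tumour replicate 2. Hilpda scored 230 and 152 there, and Igfbp4 9213 and 8193. How far these correlations rest on those libraries was not tested. Igfbp2 ran with Klhl7 (0.95), Gstm2 (0.94) and Slc13a4 (0.93), Igf1 with Ccrl2 (0.93), Slc25a46 (0.91) and Mtmr4 (0.91), and Igfbp6 with Slc4a10 (0.84), Kcnk1 (0.82) and Iars2 (0.81). Among the members themselves, Igfbp3 and Igfbp5 had r = -0.80, Igfbp5 and Igfbp7 r = -0.74, and Igfbp2 had 0.78 with Igf1r and 0.77 with Igf1.

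The rest of the pathway was read from a list of 50 genes, of which 46 were tested. Against untreated tumour, 18 rose and 6 fell in triple therapy (32.2% of all genes were called), and 10 rose and 9 fell in dual therapy (22.3% of all genes). In untreated tumour 11 rose and 19 fell relative to contralateral tissue (42.5% of all genes), and 10 rose and 21 fell against sham (46.6% of all genes). The dual therapy count of 19 fell to 11 without dual therapy replicate 2 and to 12 without untreated replicate 1. The median log2 fold change of the list was 0.21 in triple therapy and 0.03 in dual therapy against untreated tumour, and -0.26 in untreated tumour against contralateral tissue, beside 0.01 over all genes in the last comparison.

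Among ligands, Igf2 scored 8694, 6522 and 10514 in triple therapy, 6724, 6679 and 5528 in dual therapy, 3489, 4446 and 3882 in untreated tumour, 13196, 9783 and 12217 in contralateral tissue, and 10343, 9667 and 9565 in sham. Untreated tumour lay below all other groups. Igf2 rose by 1.1 ± 0.15 in triple therapy (adjusted p = 3.88e-05) and by 0.68 ± 0.15 in dual therapy (adjusted p = 0.0042) against untreated tumour, and untreated tumour was lower than contralateral tissue by -1.57 ± 0.15 (adjusted p = 3.36e-07). Igf2 shares exons with Gm49394 and Igf2os, so its score is uncertain. The genes of the insulin receptor, Insr, and of the clearance receptor for IGF2, Igf2r, were called neither between untreated tumour and contralateral tissue, where untreated tumour differed by 0.003 ± 0.12 and 0.13 ± 0.11, nor in triple therapy against untreated tumour, at -0.18 ± 0.12 and -0.07 ± 0.11. Igf2r fell in dual therapy (-0.32 ± 0.11, adjusted p = 0.0421), a call lost without dual therapy replicate 2 or 3 or untreated replicate 1 or 3. Igfbp1, which lies 3539 bases from Igfbp3, scored 1 to 12 and Igfals, which carries IGFBP3 in blood, 0 to 6, and neither passed the filter.

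Of 5 proteases of binding proteins and their inhibitors, Htra1 and Pappa2 rose in both therapies. Stc1 fell in triple therapy (-1.56 ± 0.57, adjusted p = 0.0436), but did not pass with no trend, nor when untreated tumour replicate 2 or any 1 of the triple therapy libraries was left out. Htra1 scored 1076, 960 and 1047 in triple therapy, 896, 925 and 1018 in dual therapy, 398, 428 and 601 in untreated tumour, 1032, 956 and 1026 in contralateral tissue, and 1247, 1293 and 1280 in sham. It rose by 1.13 ± 0.13 in triple therapy (adjusted p = 5.11e-06) and by 1.01 ± 0.13 in dual therapy (adjusted p = 4.29e-05), and was lower in untreated tumour than in contralateral tissue by -1.1 ± 0.13 (adjusted p = 1.94e-06). Pappa2 rose by 2.79 ± 0.46 in triple therapy (adjusted p = 0.000173), at scores of 181, 148 and 116 against 9, 20 and 45 in untreated tumour.

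Of 20 PI3K and AKT pathway genes, 9 rose and 2 fell in triple therapy, and 5 rose and 3 fell in dual therapy, each against untreated tumour, beside 32.2% of all genes called in triple therapy and 22.3% in dual therapy. In untreated tumour 4 rose and 11 fell relative to contralateral tissue, beside 42.5% of all genes. Foxo3, a transcription factor held inactive by AKT, rose by 0.91 ± 0.14 in triple therapy (adjusted p = 0.000104), and the S6 kinase gene Rps6kb1 fell by 0.61 ± 0.12 (adjusted p = 0.000596). In dual therapy Tsc2, an inhibitor of mTOR signalling, rose by 0.45 ± 0.10 (adjusted p = 0.00479). Pdpk1, the kinase that activates AKT, was lower in untreated tumour than in contralateral tissue by -0.61 ± 0.09 (adjusted p = 2.45e-05).

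The adaptor gene Grb14, an inhibitor of insulin receptor signalling, rose by 0.98 ± 0.18 in dual therapy against untreated tumour (adjusted p = 0.00091), and in triple against dual therapy it fell by 0.80 ± 0.18 (adjusted p = 0.0395). In that comparison Irs2 rose by 0.80 ± 0.15 (adjusted p = 0.0203) and Irs4 by 2.48 ± 0.54 (adjusted p = 0.0365). Irs4 had scores of 27, 22 and 26 in triple therapy against 4, 3 and 4 in dual therapy. None of these 3 calls held without dual therapy replicate 2 or without triple therapy replicate 1. The genes of the IGF2 mRNA binding proteins Igf2bp2 and Igf2bp3, proteins of fetal tissue and tumours, were higher in untreated tumour than in contralateral tissue by 4.55 ± 0.65 (adjusted p = 2.23e-05) and 2.60 ± 0.35 (adjusted p = 1.2e-05). Igf2bp3 fell by 1.89 ± 0.35 in triple therapy (adjusted p = 0.000554) and by 1.81 ± 0.35 in dual therapy (adjusted p = 0.00153). In contralateral tissue against sham, Socs3, an inhibitor of cytokine signalling, was the 1 listed gene called (2.0 ± 0.33, adjusted p = 0.0102), and it was not called without contralateral replicate 1 or sham replicate 2. Foxo1 was the 1 listed gene called in triple therapy against contralateral tissue, where it was lower by -0.54 ± 0.15 (adjusted p = 0.0373). That call ended without triple therapy replicate 1 or 2 or without any 1 contralateral library.

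**Figure D4:**
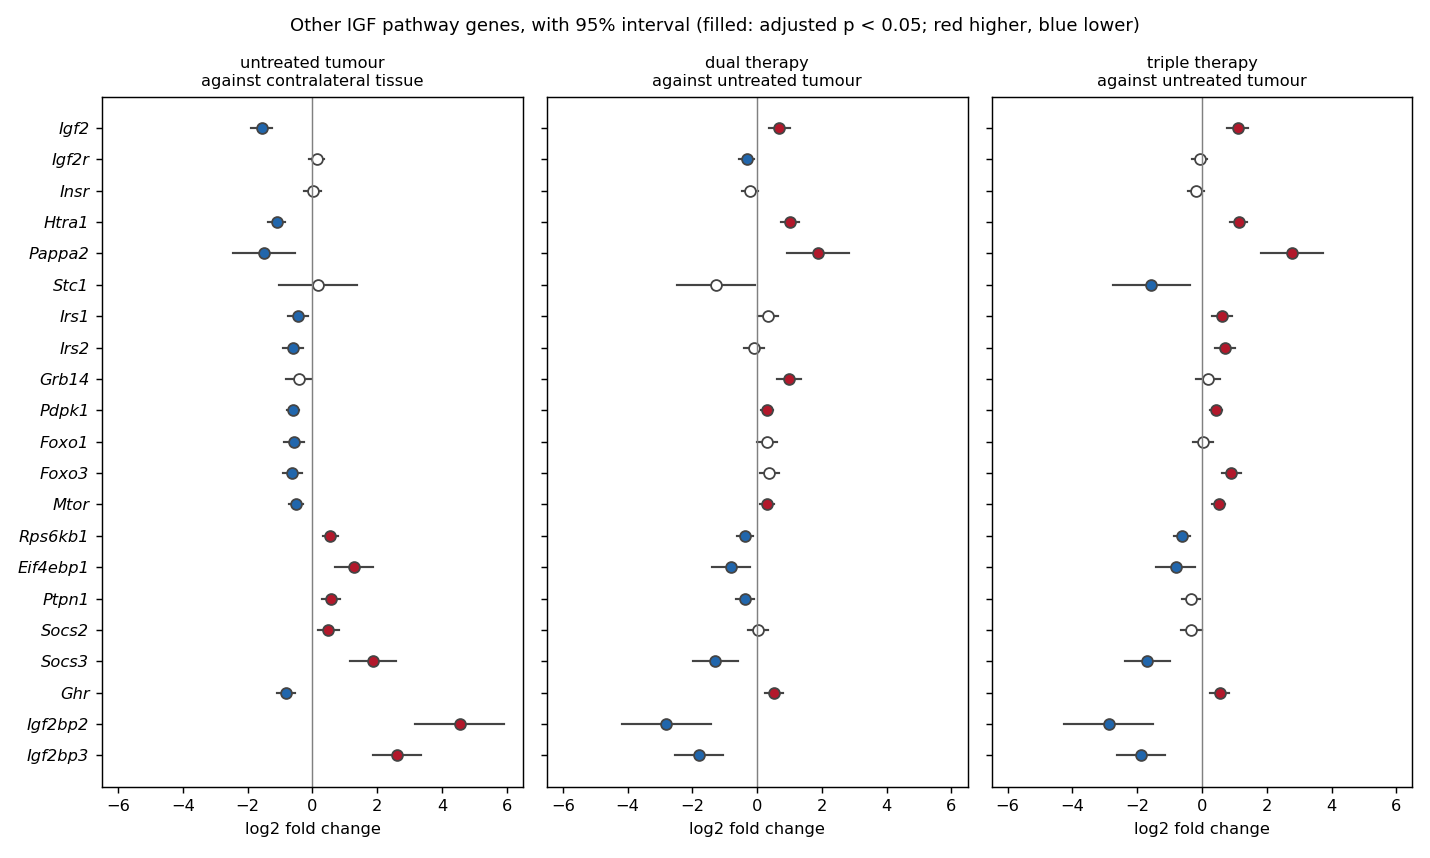
log2 fold change with 95% interval of 21 other IGF pathway genes in 3 comparisons, first-named group over second; filled points had an adjusted p below 0.05, red for higher and blue for lower. Igf2, Htra1 and Pappa2 are low in untreated tumour and higher in both therapies, and Igf2bp2 and Igf2bp3 lie the other way.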

How the data were processed

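Total RNA of brain microvessels was sequenced from 15 libraries, 3 in each of 5 groups, each a pool of 3 mice. Per the labels' protocols, RNA was isolated with a Qiagen RNeasy Plus Micro kit and DNase, and 100 ng entered a Clontech SMARTer Stranded Total RNA HI Mammalian kit. Per the submitters' processing notes, the tools were STAR 2.4.0a, featureCounts 1.4.5-p1 of Subread and DESeq2, on GRCm38 (mm10). Their roles, and how strand was used, were not given. The deposited values are scores: whole numbers that the authors normalised, and not reads, so a model for counts was not used. The estimated worth of 1 read varied between libraries, from 0.656 to 1.86 units.

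Scores were analysed as log2(score + 1) with limma 3.58.1 under R 4.3.3, allowing the variance to trend with the mean, for genes at 10 or more in at least 3 libraries (19668 tested, 7506 left out). One fit held all 15 libraries with a mean per group, giving 10 residual and 8.26 prior degrees of freedom, and p-values were adjusted by Benjamini-Hochberg over all genes. The fit was also run on simulated libraries with the same spread for all genes, simpler than these data. No result here rests on that run. The fold changes understate the change of low genes. The 8 genes and all lists were chosen with earlier results of these data known. Named were all 8 and 5 fixed genes (Igf2, Igfbp1, Igf2r, Insr, Igfals). From the wider list, up to 6 called genes a comparison with the smallest adjusted p were named. The 3 highest positive correlates of each member, among genes with an established symbol, were also named. The plot of 21 other pathway genes also holds genes picked after their values were seen. Some named genes that the rule gives are not reported here.

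Alternatives were a pseudocount of 10, no filter, quantile normalisation, scaling to 10 endothelial markers, a replicate block, no trend, library weights, only the libraries compared and each library left out. Over all genes, deviations of libraries with the same number correlated at -0.130 to 0.103 over 30 pairs, so the numbers were not taken to pair samples. Score per kb used exon lengths of GENCODE M21, whose coordinates equal those in the table. Reads without molecular identifiers are not independent molecules. In 3 libraries the spacing of low scores could not be told from 1 unit a read.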

Additional observations from a re-analysis of the deposited data

How the results depend on the processing

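No fold change of the 8 genes that was called changed sign under any alternative. Over 8 comparisons, 908 of the members' fold changes under alternatives kept their side of the threshold, 27 gained a call and 25 lost one. The cause of each change below was not tested. Of settings other than single libraries, members called in contralateral tissue against sham (1) became 0 with endothelial scaling, no trend or only the libraries compared, 3 with library weights, and 2 without untreated tumour replicate 2 and dual therapy replicate 2 together, an alternative chosen after seeing the data. All genes called there (85) became 8 with no trend, 631 with weights, 0 with only the libraries compared and 208 without those 2 libraries, and the wider list (1) became 0 with no trend or only the libraries compared. Members in dual therapy against contralateral tissue (2) became 1 with no trend. The wider list there (7) became 4 with no filter, no trend or without the 2 libraries, and 3 with endothelial scaling or only the libraries compared, and all genes (2518) became 1541 with endothelial scaling. In dual therapy against untreated tumour the wider list (19) became 9, and all genes (4377) 2205, with only the libraries compared. In triple against dual therapy the wider list (3) became 0 with endothelial scaling, no trend, only the libraries compared or without the 2 libraries. All genes there (171) became 0 with endothelial scaling, 14 with no trend, 327 with weights, 31 with only the libraries compared and 90 without the 2 libraries. In triple therapy against contralateral tissue the wider list (1) became 0 with endothelial scaling or no trend, 3 with weights and 2 with only the libraries compared, and all genes (978) became 1850 with weights.

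Leaving out each library in turn gave 3 to 6 members called in untreated tumour against contralateral tissue, 0 to 1 in contralateral tissue against sham, 0 to 2 in triple against dual therapy and 1 to 3 in dual therapy against contralateral tissue. The wider list then held 0 to 1 calls in contralateral tissue against sham, 11 to 21 in dual therapy against untreated tumour, 0 to 3 in triple against dual therapy, 3 to 7 in dual therapy and 0 to 2 in triple therapy against contralateral tissue. All genes called ran from 22 to 63, 2844 to 4649, 0 to 276, 1587 to 2194 and 595 to 816 in these 5 comparisons. With the replicate number as a block, members called stayed at 6 in untreated tumour against contralateral tissue and became 7 in triple therapy against untreated tumour, where Igfbp4 was added (adjusted p = 0.0425). The wider list gave 32 calls under the block in untreated tumour against contralateral tissue. Over all genes, deviations of same-numbered libraries correlated at -0.130 to 0.103, although Igfbp3 was lowest and Igfbp4 highest in replicate 2 of both untreated tumour and contralateral tissue. Igfbp6 had low scores, and 3 libraries a group limit all results.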
